A study of Mus musculus with 2 samples.

Results

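The nuclear-encoded genes of the mitochondrial respiratory chain were described over the cell classes of the mouse hippocampus in 1 GlaKO and 1 wt single-cell library. They were chosen by symbol: every gene listed in both libraries whose symbol begins with Nduf, Sdha to Sdhd, Uqcr, Atp5 or Cox followed by a digit of 4 to 8, apart from Cox8b and pseudogenes. This gave 92 of the 12744 genes listed in both libraries, with 44 in complex I, 8 in complex II, 8 in complex III, 16 in complex IV and 16 in complex V. Of these, 78 code for subunits or their isoforms and 14 for assembly or associated factors. The GlaKO mouse is a model of Fabry disease in which the lysosomal enzyme alpha-galactosidase A is inactivated, and the wt mice were its littermates. Both groups were 57 weeks old. The hippocampi were taken after perfusion, dissociated with enzymes, cleared of debris and sorted with the dye 7-AAD, which stains dead cells. Each genotype was 1 library, for which the labels state no animal count. No test between genotypes was therefore possible, and every interval is a 95% interval that covers counting error in these 2 libraries only.

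The respiratory chain sits in the inner mitochondrial membrane. Complex I takes electrons from NADH and complex II from succinate, complex III passes them through cytochrome c to complex IV, and complex IV hands them to oxygen, while complexes I, III and IV pump protons. Complex V, the ATP synthase, lets the protons flow back through its Fo part and makes ATP in its F1 part. A small set of subunits is encoded by mitochondrial DNA and all others, including every gene described here, by nuclear DNA. The choroid plexus epithelium, which secretes cerebrospinal fluid and borders the hippocampus in the ventricle, is known for its many mitochondria.

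The promoters of 5 members are shown because these members are among those that differed most between cell classes or genotypes, or are the widely expressed partners of such members. Cox6b2 is set beside its broad isoform Cox6b1, Atp5g1 beside Atp5g2, which codes for the same protein subunit, and Ndufb4 stands alone as the member with the highest GlaKO over wt ratio in choroid plexus. Each window runs 5′ to 3′ on the gene's strand, from 250 bases before the annotated start to 50 after it, and comes from RefSeq (GRCm38.p6). All 5 lie on the minus strand: Cox6b2 at chr7:4753045-4753344, Cox6b1 at chr7:30626065-30626364, Atp5g1 at chr11:96075582-96075881, Atp5g2 at chr15:102670998-102671297 and Ndufb4 at chr16:37654319-37654618. Capitals mark a match, on either strand, to the core of the binding motif of NRF1 (GCGCANGCG), YY1 (AANATGGCG) or an ETS factor (CCGGAAG), 3 families known to bind promoters of respiratory chain genes.
Cox6b2: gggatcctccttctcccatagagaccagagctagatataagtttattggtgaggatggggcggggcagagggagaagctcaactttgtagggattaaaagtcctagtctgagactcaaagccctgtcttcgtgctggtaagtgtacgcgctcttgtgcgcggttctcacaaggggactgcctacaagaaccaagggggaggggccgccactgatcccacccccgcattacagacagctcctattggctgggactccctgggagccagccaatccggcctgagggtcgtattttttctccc
Cox6b1: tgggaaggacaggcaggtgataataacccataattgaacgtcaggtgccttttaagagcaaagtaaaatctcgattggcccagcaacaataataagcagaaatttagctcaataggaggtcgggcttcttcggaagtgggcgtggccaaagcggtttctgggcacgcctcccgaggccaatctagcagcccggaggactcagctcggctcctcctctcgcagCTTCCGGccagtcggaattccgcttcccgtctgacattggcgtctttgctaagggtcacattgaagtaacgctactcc
Atp5g1: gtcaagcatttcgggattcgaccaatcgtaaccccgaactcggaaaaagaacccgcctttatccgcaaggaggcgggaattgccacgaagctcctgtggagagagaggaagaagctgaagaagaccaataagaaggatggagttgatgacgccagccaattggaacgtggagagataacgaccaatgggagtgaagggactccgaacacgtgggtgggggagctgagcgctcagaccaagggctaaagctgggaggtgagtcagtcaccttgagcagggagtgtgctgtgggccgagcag
Atp5g2: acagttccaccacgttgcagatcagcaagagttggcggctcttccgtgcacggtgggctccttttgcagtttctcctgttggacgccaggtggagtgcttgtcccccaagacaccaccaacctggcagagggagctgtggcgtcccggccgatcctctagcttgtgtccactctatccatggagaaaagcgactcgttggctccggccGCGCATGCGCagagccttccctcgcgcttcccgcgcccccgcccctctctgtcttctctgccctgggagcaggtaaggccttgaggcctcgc
Ndufb4: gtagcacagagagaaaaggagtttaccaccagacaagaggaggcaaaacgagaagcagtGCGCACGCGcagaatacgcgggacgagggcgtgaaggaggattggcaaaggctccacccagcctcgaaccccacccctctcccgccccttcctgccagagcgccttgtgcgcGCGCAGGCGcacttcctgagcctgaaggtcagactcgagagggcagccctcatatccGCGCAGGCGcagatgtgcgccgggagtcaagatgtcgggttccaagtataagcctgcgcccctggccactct
Neither Cox6b2 nor Atp5g1 held any of the 3 cores in this window. Cox6b1 held 1 ETS core, Ndufb4 held 3 NRF1 cores, and Atp5g2 held 2 overlapping NRF1 cores, since the run in capitals matches on both strands.

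Of the 92 members, 75 matched an entry in the promoter table. The NRF1 core was found in 23 of them (30.7%), against 15.2% of the 9921 matched genes that both libraries list and 7.03% of all 27025 genes in the table. The ETS core was found in 21 members (28.0%), against 19.5% and 9.93%, and the YY1 core in 12 (16%), against 5.86% and 2.76%. At least 1 of the 3 was present in 45 members (60.0%), against 34.8% of matched genes in both libraries and 17.2% of all genes. These counts describe letters in a window, not bound sites.

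The GlaKO library held 4572 barcodes and 29914106 unique molecular identifiers (UMIs), and the wt library 5443 barcodes and 31929688 UMIs. Of these, 4502 GlaKO and 5418 wt cells were kept after doublet removal, and 6 barcode sequences occurred in both libraries. Cells were clustered without the members, mitochondrial genes or ribosomal protein genes, and clusters were named from marker lists. Such names mean cells like that type. Transcripts of the targeted gene Gla had 219 UMIs or 7.46 CPM (counts per 1000000 UMIs of the library or class; 6.50 to 8.52) in GlaKO and 396 UMIs or 12.5 CPM (11.3 to 13.7) in wt cells. The labels do not say which part of Gla is disrupted, so reads from its 3′ end need not check the genotype. The 7 classes with at least 100 cells in each library were compared. Choroid plexus epithelium held 802 GlaKO and 2608 wt cells, oligodendrocytes 1337 and 849, microglia 724 and 446, oligodendrocyte precursors 448 and 375, astrocytes 433 and 393, neurons 432 and 392, and T cells 209 and 169. The 8 choroid plexus markers used here summed to 5084 CPM of class UMIs in GlaKO and 5623 CPM in wt choroid plexus cells. In the other 6 classes they summed to between 17.6 and 115 CPM in GlaKO and between 72.9 and 151 CPM in wt cells. In each of these classes the sum was higher in wt, the library with more choroid plexus cells.

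Respiratory chain transcripts made up a far larger share of the RNA in choroid plexus epithelium than in any other class compared. Members were 11.4% of class UMIs in GlaKO and 11.9% in wt choroid plexus cells. Neurons (2.71% in GlaKO, 2.95% in wt) and astrocytes (2.63% in GlaKO, 2.94% in wt) came next, followed by oligodendrocyte precursors (2.52% in GlaKO, 2.77% in wt) and oligodendrocytes (2.30% in GlaKO, 2.53% in wt). T cells held 2.12% in GlaKO and 2.19% in wt, and microglia, the brain's macrophages, held the least, at 1.29% in GlaKO and 1.45% in wt. The order of the 7 classes was the same in both libraries, in 21 of 21 pairs of classes. In wt cells astrocytes and neurons did not differ beyond their counting intervals (2.91 to 2.97% for astrocytes and 2.92 to 2.97% for neurons).

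**Figure D1:**
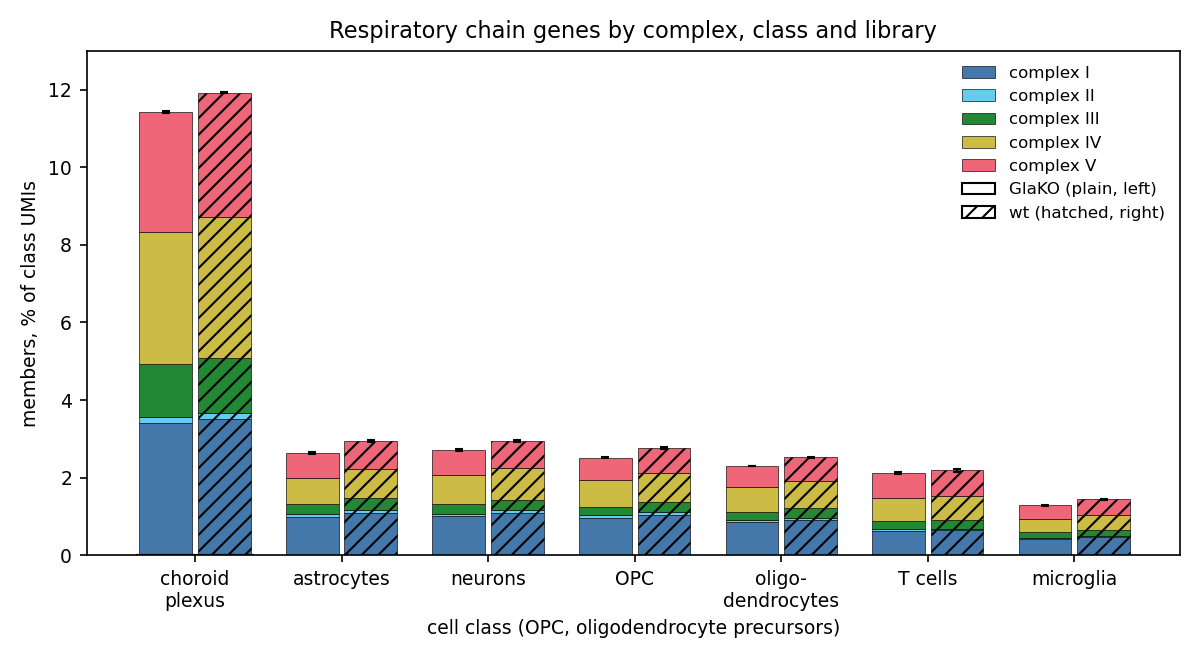
Summed UMIs of the 92 members as a percent of all UMIs of a class, stacked by complex, with GlaKO plain on the left and wt hatched on the right of each pair. Error bars are exact binomial 95% intervals of the sum. Choroid plexus epithelium stands at 11.4% in GlaKO and 11.9% in wt, and microglia lowest at 1.29% in GlaKO and 1.45% in wt.

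The share also varied from cell to cell within a class. In choroid plexus cells the middle 80% of cells ran from 8.87 to 13.1% in GlaKO and from 8.76 to 13.7% in wt, with medians of 11.1% in GlaKO and 11.6% in wt. In microglia the middle 80% ran from 0.861 to 1.66% in GlaKO and from 1.05 to 1.93% in wt. The ranges of choroid plexus cells and microglia did not overlap in either library. Astrocytes, neurons and oligodendrocyte precursors spread more widely for their level. Astrocytes ran from 1.21 to 3.89% in GlaKO and from 1.54 to 4.08% in wt. Neurons ran from 1.36 to 3.96% in GlaKO and from 1.76 to 3.90% in wt, and precursors from 1.09 to 3.31% in GlaKO and from 1.55 to 3.61% in wt. Median depth was 3306 UMIs in GlaKO and 2981 UMIs in wt astrocytes, against 8611.5 and 5866.5 UMIs in choroid plexus. The part of depth in the spread was not tested. By gene, 83 of the 92 members had their highest level in choroid plexus epithelium in both libraries. The other 9 were Ndufaf4 and Cox4i2, highest in astrocytes, Ndufaf2, Sdhaf1, Sdhaf3 and Atp5s, highest in oligodendrocyte precursors, Cox7a2l, highest in T cells, Ndufa4l2, highest in neurons at 4 GlaKO and 6 wt UMIs, and Sdha, which led in astrocytes in GlaKO and in choroid plexus in wt. Of these 9, 6 are assembly or associated factors.

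Of the 92 members, 90 had at least 100 UMIs over the 7 classes, and all 90 had a level in choroid plexus above their median over the other 6 classes in both libraries. Among all 12546 genes with that count, 32.0% did. The median fold over the other classes was 4.12 in GlaKO and 3.84 in wt for the 90 members, against 0.633 in GlaKO and 0.623 in wt for all genes. Complex III stood highest, at a median of 6.48 in GlaKO and 6.07 in wt, then complex IV (5.15 in GlaKO, 4.75 in wt), complex V (4.98 in GlaKO, 4.95 in wt), complex I (3.57 in GlaKO, 3.40 in wt) and complex II (2.28 in GlaKO, 2.20 in wt). These medians include assembly and associated factors, which are 4 of the 8 members of complex II and absent from complex III. The complex II subunits ran from 1.59 (Sdha) to 4.17 (Sdhc) in GlaKO and from 1.68 to 4.24 in wt. Its factors ran from 1.14 (Sdhaf1) to 5.95 (Sdhaf4) in GlaKO and from 1.17 to 6.15 in wt. Choroid plexus and other classes come from the same libraries, so this is a description of cell classes and not a test.

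**Figure D2:**
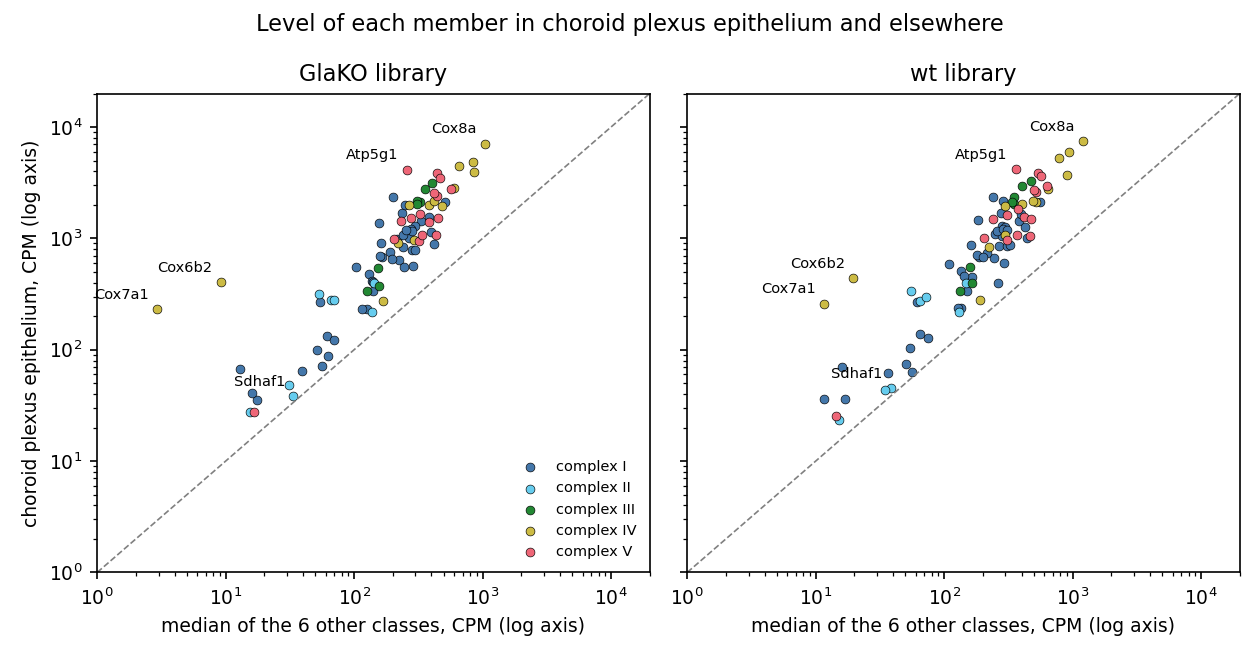
Level of each of 90 members in choroid plexus epithelium (vertical axis) against the median of the other 6 classes (horizontal axis), both in CPM on log axes, with GlaKO on the left and wt on the right. Points above the dashed line are higher in choroid plexus, and Cox7a1 and Cox6b2 lie farthest above it.

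In complex I, 7 core subunits carry the flavin and iron-sulfur clusters or line the quinone pocket, and 29 accessory subunits surround them. Levels are set mainly between classes for the same gene. The isoform shares and the members with the most or fewest UMIs set counts of different genes side by side, with no correction between genes. Ndufv1, which binds NADH, had 230.3 CPM in GlaKO and 236 CPM in wt choroid plexus, against 49.4 to 143 CPM in GlaKO and 49.6 to 164 CPM in wt cells of the other classes. Ndufs1, a large iron-sulfur subunit, had 132 CPM in GlaKO and 138 CPM in wt choroid plexus, close to the 119.6 CPM in GlaKO and 107 CPM in wt neurons. Among accessory subunits, Ndufa13 had the most UMIs of complex I, with 25305 in GlaKO and 45443 in wt cells. Its level was 2107 CPM in GlaKO and 2115 CPM in wt choroid plexus, and 197 to 632 CPM in GlaKO and 218 to 726 CPM in wt cells elsewhere. Ndufa1, a small membrane-arm subunit encoded on the X chromosome, had the widest choroid plexus margin in complex I, 2338 CPM in GlaKO and 2369 CPM in wt, which was 11.7 times the median of the other classes in GlaKO and 9.80 times in wt. Ndufc2 was unlike the other accessory subunits named here in that astrocytes came close to choroid plexus, with 849 CPM in GlaKO and 910.1 CPM in wt astrocytes against 1152 CPM in GlaKO and 1256 CPM in wt choroid plexus. Of the 8 assembly factors, which help build complex I without staying in it, Ndufaf5 had the fewest UMIs, with 608 in GlaKO and 830 in wt cells. Ndufaf4 was higher in astrocytes (142 CPM in GlaKO, 147 CPM in wt) than in choroid plexus (87.0 CPM in GlaKO, 74.1 CPM in wt).

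Complex II, succinate dehydrogenase, also works in the tricarboxylic acid cycle, and all 4 of its subunits are nuclear-encoded. Sdha, the flavoprotein that oxidises succinate, stood at nearly the same level in astrocytes (223 CPM in GlaKO, 211 CPM in wt) and choroid plexus (219.6 CPM in GlaKO, 219 CPM in wt), slightly higher in astrocytes in GlaKO and in choroid plexus in wt. Sdhb, the iron-sulfur subunit with the most UMIs of this complex in GlaKO and wt cells (6131 in GlaKO, 9418 in wt), had 401 CPM in GlaKO and 399 CPM in wt choroid plexus against 197 CPM in GlaKO and 246 CPM in wt astrocytes. The membrane anchors Sdhc and Sdhd stood at 278 and 279 CPM in GlaKO choroid plexus and at 273 and 299.8 CPM in wt choroid plexus, and at most at 128 CPM in the other 6 classes. Sdhaf4, an assembly factor for the flavoprotein, was a factor with a steep pattern, with 317 CPM in GlaKO and 338 CPM in wt choroid plexus against 25.3 CPM in GlaKO and 26.1 CPM in wt oligodendrocytes. Sdhaf3 had the fewest UMIs of the complex, 578 in GlaKO and 686 in wt cells.

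In complex III, Uqcrfs1, the Rieske iron-sulfur protein, had 539 CPM in GlaKO and 557 CPM in wt choroid plexus, with 284 CPM in GlaKO and 278 CPM in wt astrocytes next. The large matrix-facing subunits Uqcrc1 (336 CPM in GlaKO, 335 CPM in wt) and Uqcrc2 (377 CPM in GlaKO, 401 CPM in wt) were also highest in choroid plexus. The small subunits had wider margins. Uqcr11 had 3168 CPM in GlaKO and 3293 CPM in wt choroid plexus and 195 to 494 CPM in GlaKO and 254 to 561 CPM in wt cells elsewhere, and Uqcr10 had 2779 CPM in GlaKO and 2939 CPM in wt choroid plexus. Uqcrh, the hinge protein near cytochrome c1, was the only member of this complex for which T cells were the second highest class in both libraries, with 659.6 CPM in GlaKO and 769 CPM in wt T cells.

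In complex IV, cytochrome c oxidase, Cox8a had the most UMIs of all 92 members, 72343 in GlaKO and 150377 in wt cells. It had 7088 CPM in GlaKO and 7419 CPM in wt choroid plexus, against 592 CPM in GlaKO and 684 CPM in wt microglia at the low end. Cox6c (4895 CPM in GlaKO, 5967 CPM in wt) and Ndufa4 (4452 CPM in GlaKO, 5308 CPM in wt), which was first assigned to complex I and is now counted as a subunit of complex IV, were also high there. Neurons were the next highest class for both, with 1059.5 CPM in GlaKO and 1238 CPM in wt for Cox6c and 1179 CPM in GlaKO and 1247 CPM in wt for Ndufa4. Cox7a2l, a factor that joins complexes III and IV into supercomplexes, had another pattern. It was highest in T cells (299 CPM in GlaKO, 336 CPM in wt), similar in choroid plexus (274 CPM in GlaKO, 278 CPM in wt) and microglia (265 CPM in GlaKO, 245 CPM in wt), and lowest in astrocytes (90.1 CPM in GlaKO, 88.6 CPM in wt).

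In complex V, the F1 part holds the catalytic subunit Atp5b, with 1524 CPM in GlaKO and 1496 CPM in wt choroid plexus and 663 CPM in both GlaKO and wt neurons, and its partner Atp5a1, with 1074 CPM in GlaKO and 1064 CPM in wt choroid plexus. The small F1 subunit Atp5e had the most UMIs of the complex, 39396 in GlaKO and 78747 in wt cells, and after choroid plexus (3857 CPM in GlaKO, 3875 CPM in wt) it was highest in T cells, at 1046 CPM in both libraries. Among Fo and stalk subunits, Atp5g1 had the widest margin, 4134 CPM in GlaKO and 4183 CPM in wt choroid plexus against 168 to 358 CPM in GlaKO and 219.9 to 420.1 CPM in wt cells elsewhere. Atp5s, a factor associated with the complex, had the fewest UMIs, 603 in GlaKO and 678 in wt cells. For Atp5o.1, which codes for a stalk subunit, the annotation holds more than 1 gene ID with the name Atp5o, so its counts may be split between copies.

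Several subunits exist as isoforms, and their mix differed between classes. Atp5g1, Atp5g2 and Atp5g3 code for the same mature c subunit of the Fo rotor. Atp5g1 was 62.4% of their UMIs in GlaKO and 62.1% in wt choroid plexus cells, against 26.1% in GlaKO and 28.7% in wt microglia, where Atp5g2 was 57.6% in GlaKO and 54.6% in wt. Neurons split almost evenly, with 31.1, 34.4 and 34.5% for Atp5g1, Atp5g2 and Atp5g3 in GlaKO and 33.1, 34.3 and 32.6% in wt. The intervals of choroid plexus cells and the other 6 classes compared did not overlap for Atp5g1 in either library. T cells and oligodendrocyte precursors also had more Atp5g2 than either other gene, at 58.1 and 50.5% in GlaKO and 53.9 and 46.9% in wt.

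Cox6b2, known in other tissues mainly as the testis isoform of Cox6b1, had 405 CPM (391 to 420.3) in GlaKO and 441 CPM (431 to 451) in wt choroid plexus cells, 17.0% of Cox6b UMIs in GlaKO and 17.8% in wt. Astrocytes had 47.4 CPM in GlaKO and 40.1 CPM in wt, and microglia 3.60 CPM in GlaKO and 9.42 CPM in wt. Cox7a1, known as the heart and muscle isoform of Cox7a2, had 230.1 CPM (219 to 241) in GlaKO and 259 CPM (252 to 266) in wt choroid plexus cells, which was 9.58% of Cox7a UMIs in GlaKO and 10.6% in wt. In the other 6 classes it lay between 0.849 and 10.8 CPM in GlaKO and between 7.09 and 18.2 CPM in wt. These low levels outside the choroid plexus were higher in wt in each class for Cox7a1 and in each but astrocytes for Cox6b2, as was the sum of choroid plexus markers in all 6, whose part in them was not tested.

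Cox4i2, known as the hypoxia-responsive isoform of Cox4i1, and Ndufa4l2, a relative of Ndufa4 known as a target of hypoxia-inducible factor, were nearly absent from the 7 classes. They were found in cells with pericyte and smooth muscle markers, a class of 14 GlaKO and 33 wt cells. Ndufa4l2 had 2113 CPM (1708 to 2586) in GlaKO and 2504 CPM (2214 to 2821) in wt pericytes, from 94 and 270 UMIs. Cox4i2 had 1057 CPM (776 to 1405) in GlaKO and 890.3 CPM (721 to 1087) in wt pericytes, from 47 and 96 UMIs. Among the other classes, astrocytes had the most Cox4i2, with 6.005 CPM in GlaKO and 9.84 CPM in wt, and Ndufa4l2 had no UMI in GlaKO astrocytes or microglia and none in oligodendrocyte precursors of either library. A count of 0 allows up to 1.80 CPM in GlaKO astrocytes.

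**Figure D3:**
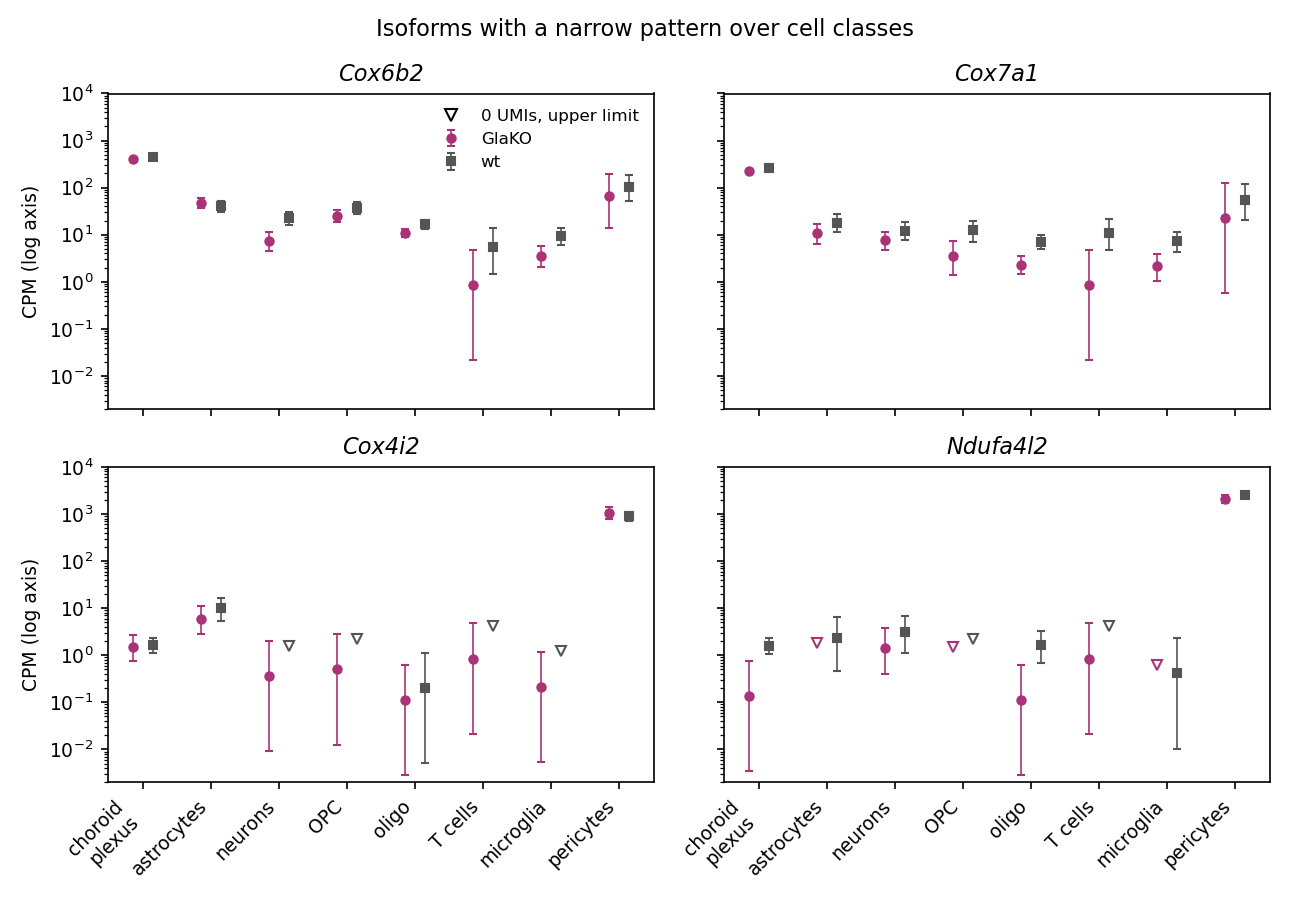
Level in CPM on a log axis of 4 isoforms in 7 classes and in pericytes, with GlaKO circles on the left and wt squares on the right of each pair. Bars are exact Poisson 95% intervals, and open triangles give the upper limit of 3 counts where no UMI was seen. Cox6b2 and Cox7a1 are highest in choroid plexus epithelium, and Cox4i2 and Ndufa4l2 in pericytes.

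Between the genotypes, the median member ratio lay slightly below equal levels in all 7 classes, by far less than 1.5-fold. Members with at least 100 UMIs in a class were compared as log2 ratios of GlaKO over wt. Their median was -0.15 in microglia, -0.14 in astrocytes, -0.12 in oligodendrocyte precursors, -0.11 in neurons, -0.11 in oligodendrocytes, -0.07 in T cells and -0.04 in choroid plexus epithelium. The median of all genes measured in the same class was -0.02 in microglia, 0.01 in oligodendrocyte precursors, 0.03 in oligodendrocytes, 0.06 in T cells and 0.06 in choroid plexus, and under 0.01 in size in astrocytes and neurons. Ratios lay below 0 for 77 of 88 measured members in oligodendrocytes, 75 of 86 in oligodendrocyte precursors, 73 of 83 in microglia, 71 of 87 in neurons, 68 of 84 in astrocytes, 66 of 90 in choroid plexus and 46 of 73 in T cells. For all genes the share below 0 was between 38.8% in choroid plexus and 53.4% in microglia. With edgeR TMM scaling the count below 0 became 80 of 90 in choroid plexus and 56 of 73 in T cells.

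Only 2 member ratios passed 1.5-fold with an interval that excluded equal levels. Atp5g1 had 262 CPM in GlaKO and 394 CPM in wt astrocytes, from 436 and 520 UMIs, a log2 ratio of -0.59 (-0.78 to -0.40). Cox6b2 had 10.99 CPM in GlaKO and 16.6 CPM in wt oligodendrocytes, from 99 and 82 UMIs, a log2 ratio of -0.60 (-1.03 to -0.16). Both lie close to the limit: Atp5g1 no longer passed with TMM scaling or with choroid plexus RNA subtracted (-0.58 and -0.54), nor did Cox6b2 with that subtraction (-0.26). By the same rule, the share of all measured genes called lower was 1.21% in astrocytes, 1.21% in oligodendrocytes, 1.47% in T cells, 2.5% in choroid plexus, 1.44% in microglia, 1.58% in neurons and 1.19% in oligodendrocyte precursors, and members were at 1 of 84, 1 of 88 and 0 in the other 5 classes. The share called higher was 2.37% in astrocytes, 1.58% in oligodendrocytes, 6.01% in T cells, 5.08% in choroid plexus, 2.19% in microglia, 2.39% in neurons and 2.11% in oligodendrocyte precursors, and no member was called higher in any class.

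**Figure D4:**
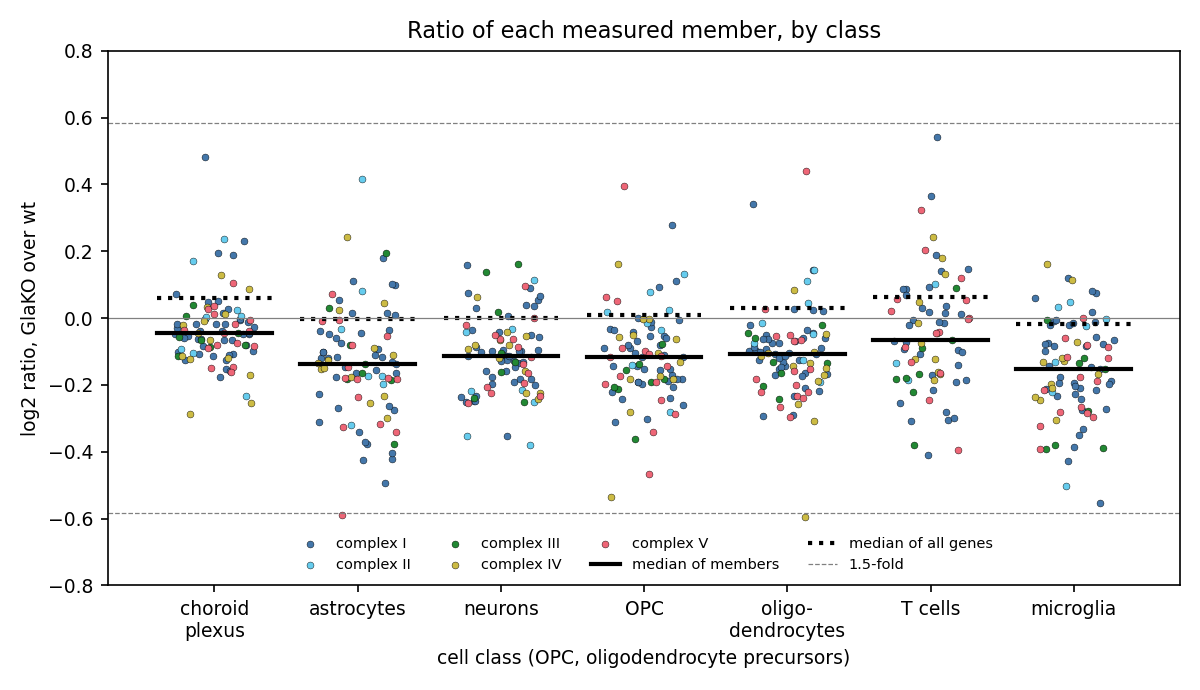
Log2 ratio of GlaKO over wt for each member with at least 100 UMIs in a class, coloured by complex, with the median of members as a solid and that of all genes as a dotted line, and 1.5-fold as dashed lines. The solid line lies below the dotted line in each of the 7 classes, and 2 points pass the lower dashed line.

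Of the 73 members measured in all 7 classes, 25 (34.2%) had a ratio below 0 in each class, against 95 of 1869 genes measured in all 7 (5.08%), and none had a ratio above 0 in each, against 170 genes (9.10%). The 7 ratios share the same 2 libraries and are not independent. Ndufa4 was the single member whose interval excluded equal levels in every class, with ratios from -0.30 in microglia to -0.08 in neurons. This was 1 of 73 members (1.37%), against 10 of 1869 genes (0.535%) lower by interval in every class. With TMM scaling Atp5g1, Cox6c and Cox8a joined Ndufa4, so that 4 members did so. All genes were not counted under that scaling. Ndufa4 had 790.2 CPM in GlaKO and 972 CPM in wt astrocytes, 278 CPM in GlaKO and 344 CPM in wt microglia, and 472 CPM in GlaKO and 565 CPM in wt oligodendrocytes. Another 7 members were lower in GlaKO in all 7 classes and by their intervals in 6, a pattern not counted over all genes. These were Cox6c, Cox8a, Uqcr10, Uqcr11, Atp5j and Atp5l, whose interval included equal levels in T cells, and Atp5g1, where it did so in choroid plexus with a ratio of -0.02 (-0.04 to 0.00). Cox6c ran from -0.29 in choroid plexus to -0.12 in T cells.

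The sums of complexes I, III, IV and V were lower in GlaKO in each class, though in T cells the intervals of complexes I (-0.08 to 0.03), IV (-0.11 to 0.00) and V (-0.07 to 0.04) included equal levels. Summed over its members, complex I had a ratio of -0.15 in astrocytes, -0.15 in microglia, -0.12 in neurons, -0.11 in oligodendrocyte precursors, -0.11 in oligodendrocytes, -0.04 in choroid plexus and -0.02 in T cells. Complex IV had -0.16 in astrocytes, -0.15 in microglia, -0.15 in oligodendrocytes, -0.13 in oligodendrocyte precursors, -0.13 in neurons, -0.09 in choroid plexus and -0.05 in T cells. In both complexes astrocytes and microglia lay farthest below equal levels and T cells nearest to them. Complex V had -0.20 in microglia, -0.19 in astrocytes, -0.17 in oligodendrocyte precursors, -0.16 in oligodendrocytes, -0.12 in neurons, -0.06 in choroid plexus and -0.02 in T cells. Complex III had -0.23 in microglia, -0.21 in oligodendrocyte precursors, -0.17 in T cells, -0.15 in astrocytes, -0.15 in oligodendrocytes, -0.11 in neurons and -0.06 in choroid plexus. Complex II, with the fewest UMIs, had -0.11 in neurons (-0.21 to -0.01), and its intervals included equal levels in the other 6 classes, at -0.10 in microglia, -0.10 in astrocytes, -0.05 in T cells, -0.03 in choroid plexus, -0.01 in oligodendrocyte precursors and 0.03 in oligodendrocytes. Within complex V, the 10 Fo and stalk subunits had a lower median than the 5 F1 subunits in 6 classes and a higher one in T cells. The Fo and stalk median was -0.24 in microglia, -0.21 in oligodendrocytes, -0.18 in astrocytes, -0.17 in oligodendrocyte precursors, -0.13 in neurons, -0.08 in choroid plexus and 0.01 in T cells. The F1 median was -0.12 in microglia, -0.06 in oligodendrocytes, -0.15 in astrocytes, -0.10 in oligodendrocyte precursors, -0.06 in neurons, -0.01 in choroid plexus and -0.04 in T cells. Assembly and associated factors, which have low counts, had medians of 0.03 in microglia, 0.02 in astrocytes, 0.02 in choroid plexus, -0.04 in oligodendrocyte precursors, -0.05 in oligodendrocytes and -0.16 in neurons, with 9, 9, 14, 11, 13 and 13 of 14 measured.

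Next came the extreme ratios of each class, other than those above. In microglia the lowest were Ndufb6 (39.6 CPM in GlaKO, 58.2 CPM in wt, -0.55), a membrane-arm subunit of complex I, the complex II assembly factor Sdhaf2 (18.2 CPM in GlaKO, 25.8 CPM in wt, -0.50) and Ndufc1 (100.4 CPM in GlaKO, 135 CPM in wt, -0.43), and in astrocytes Ndufc1 (241 CPM in GlaKO, 339 CPM in wt, -0.49) and Ndufs4 (141 CPM in GlaKO, 189 CPM in wt, -0.42), a subunit whose loss causes Leigh syndrome in humans. The intervals of these 5 excluded equal levels. In oligodendrocytes Cox7b was lower (188 CPM in GlaKO, 233 CPM in wt, -0.31), in oligodendrocyte precursors Uqcr11 (435 CPM in GlaKO, 558 CPM in wt, -0.36), in neurons Ndufaf3 (73.1 CPM in GlaKO, 93.2 CPM in wt, -0.35) and Sdhaf4 (111 CPM in GlaKO, 142 CPM in wt, -0.35), and in T cells Uqcrfs1 (115 CPM in GlaKO, 150.2 CPM in wt, -0.38), all by their intervals. Upward extremes whose interval excluded equal levels were Atp5c1, the gamma shaft of F1, in T cells (329 CPM in GlaKO, 263 CPM in wt, 0.32), Atp5s in oligodendrocytes (17.3 CPM in GlaKO, 12.8 CPM in wt, 0.44), Sdha in oligodendrocytes (146 CPM in GlaKO, 132 CPM in wt, 0.14), and Ndufaf4 in choroid plexus (87.0 CPM in GlaKO, 74.1 CPM in wt, 0.23). For Ndufb6 in T cells (0.54), Sdhaf2 in astrocytes (0.41), Atp5s (0.40) and Ndufaf4 (0.28) in oligodendrocyte precursors and Ndufaf5 in oligodendrocytes (0.34) the interval included equal levels, and the largest of their counts was 169 UMIs in a library. The interval also included equal levels for the remaining extremes, which were Ndufa10 (-0.41) and Ndufv2 (0.37) in T cells, Cox6b2 (0.24) and Uqcrc2 (0.20) in astrocytes, Sdhaf3 (0.24) in choroid plexus, Cox6a1 (0.16), Ndufaf7 (0.12) and Cox7a2l (0.11) in microglia, Sdhc (-0.38), Uqcrc2 (0.16), Ndufs1 (0.16) and Uqcrc1 (0.14) in neurons, and Cox6b2 (-0.54) and Cox7a2l (0.16) in oligodendrocyte precursors.

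Choroid plexus epithelium had the deepest counts and so the narrowest intervals. Ndufb4, an accessory subunit of the complex I membrane arm, was the member farthest from equal levels there, with 4144 UMIs or 559 CPM in GlaKO and 7298 UMIs or 400.2 CPM in wt, a ratio of 0.48 (0.43 to 0.54). Its ratio was between -0.15 and 0.02 in the other 6 classes. RefSeq lists the near-copies Ndufb4b and Ndufb4c, so the split of reads between copies is uncertain. Cox6c (-0.29, -0.30 to -0.27), Ndufa4 (-0.25, -0.27 to -0.24) and the complex II assembly factor Sdhaf1 (-0.23, -0.43 to -0.04) were the lowest. Of the 90 members measured there, 43 were lower and 9 higher by their intervals, against 1119 lower and 2249 higher of 9436 genes. Whether an interval excludes equal levels depends on the count, and these genes were not matched to the members for level.

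In choroid plexus as a whole, the subunits encoded by mitochondrial DNA lay farther below equal levels than the nuclear ones. All 13 were lower in GlaKO, with a median of -0.67, and their summed share was 1.56% in GlaKO and 2.48% in wt, whereas the nuclear members had a median of -0.04. Within the 4 choroid plexus clusters found in both libraries, that share was 2.01% in GlaKO and 3.12% in wt, 1.03% in GlaKO and 1.40% in wt, 3.003% in GlaKO and 4.72% in wt, and 0.442% in GlaKO and 0.324% in wt. The last of these, with 120 GlaKO and 474 wt cells, thus ran the other way. In the other classes their median was 0.10 in microglia, -0.01 in T cells, -0.04 in astrocytes, -0.04 in oligodendrocytes, -0.09 in neurons and -0.15 in oligodendrocyte precursors. Genes of the tricarboxylic acid cycle (0.01, 7 of 16 below 0) and glycolysis (0.04, 7 of 16 below 0) stayed near 0 in choroid plexus. In microglia glycolysis genes had a median of -0.13, with 11 of 14 below 0, and genes of electron carriers and coenzyme Q synthesis -0.21, with 7 of 9. GlaKO choroid plexus cells were deeper, at a median of 8611.5 UMIs against 5866.5 UMIs in wt, and genes of the dissociation response had a median of 0.45 in choroid plexus, 0.40 in astrocytes and 0.17 in microglia. Their part in the ratios was not tested.

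Choroid plexus itself was also high in glycolysis and in the tricarboxylic acid cycle, with 16 of 17 and 16 of 16 listed genes above the median of the other classes in both libraries. Its fold over the median of the other classes was 3.47 in GlaKO and 3.09 in wt for 17 glycolysis genes, 1.95 in GlaKO and 2.17 in wt for 16 tricarboxylic acid cycle genes, and 1.12 in GlaKO and 1.14 in wt for 34 genes of mitochondrial biogenesis and assembly, of which 18 were above 1 in both. For the 13 mitochondrially encoded subunits it was 0.776 in GlaKO and 1.19 in wt, and 2 of the 13 were above 1 in both libraries, against 90 of 90 measured nuclear members.

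Choroid plexus markers were higher in wt in all 6 other classes, and the median member ratio was below 0 in each. Markers had 19.5 CPM in GlaKO and 81.9 CPM in wt T cells, where the member median was -0.07. In microglia they had 17.6 CPM in GlaKO and 72.9 CPM in wt, with a median of -0.15. Oligodendrocytes had 26.3 CPM in GlaKO and 77.2 CPM in wt (-0.11), and astrocytes 43.8 CPM in GlaKO and 90.1 CPM in wt (-0.14). Oligodendrocyte precursors had 47.5 CPM in GlaKO and 81.1 CPM in wt (-0.12), and neurons 115 CPM in GlaKO and 151 CPM in wt (-0.11). The part of choroid plexus RNA in the ratios was not tested. From the marker sums, the share of choroid plexus RNA was put at between 0.346% in microglia and 2.26% in neurons in GlaKO, and between 1.30% in microglia and 2.68% in neurons in wt. With that share subtracted, which was tried after the data had been seen, the median of members became -0.07 in microglia, -0.11 in astrocytes, -0.10 in neurons, -0.10 in oligodendrocyte precursors, -0.07 in oligodendrocytes and 0.02 in T cells. The direction turned in T cells, while the order of the classes was kept in 21 of 21 pairs. Clusters of 1 class also differed. The oligodendrocyte precursor cluster with few UMIs per cell (median 2227 in GlaKO, 2143 in wt) had a median member ratio of -0.49, against -0.09 in the deep one (8027 in GlaKO, 7051 in wt).

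Within neurons, the ratio was not the same in each cluster. The cluster with markers of Cajal-Retzius cells, an early-born neuron type, had 3.40% member UMIs in its 60 GlaKO and 3.22% in its 65 wt cells, with a median ratio of 0.07 and 24 of 63 members below 0. The other neuron clusters had medians of -0.11 and -0.20. Dcn, a fibroblast marker in the lists used here, was among the leading genes of the Cajal-Retzius cluster. At Leiden resolution 2.0 that cluster had 52 GlaKO and 56 wt cells, beside an unnamed cluster of 17 cells led by Dcn. The part of such cells in its ratio was not tested.

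Within choroid plexus, astrocytes, neurons and T cells, nuclear members were lower in cells with a higher mitochondrially encoded share. Cells were put in 3 equal parts by that share, and members were taken as a percent of UMIs that are not mitochondrially encoded. In choroid plexus, members were 12.4, 11.6 and 10.6% from the low to the high part in GlaKO and 13.1, 12.2 and 10.97% in wt. Astrocytes went from 3.01 to 2.27% over the parts in GlaKO and from 3.23 to 2.67% in wt, and neurons from 3.26 to 2.31% in GlaKO and from 3.37 to 2.70% in wt. Microglia ran the other way, from 1.24 to 1.36% in GlaKO and from 1.40 to 1.54% in wt. In oligodendrocytes the middle part was highest in both libraries, and oligodendrocyte precursors had 2.84, 2.65 and 1.70% in GlaKO and 3.15, 2.34 and 2.47% in wt. Depth fell with the mitochondrial share in choroid plexus, from a median of 9823.5 to 6977 UMIs in GlaKO and from 6923.5 to 4910.0 UMIs in wt. In astrocytes it fell from 4208 to 2861.5 UMIs in GlaKO and from 3667 to 2329 UMIs in wt. In neurons it went from 6665 to 4782 UMIs in GlaKO and from 4776 over 5240 in the middle part to 3536 UMIs in wt. In oligodendrocyte precursors it fell from 6617 to 2244 UMIs in GlaKO and from 6797 to 1997 UMIs in wt. Oligodendrocytes went from 7590.5 to 4436 UMIs in GlaKO and from 7106 to 2964 UMIs in wt. In T cells depth rose instead, from 4394 to 5294 UMIs in GlaKO and from 4210 to 4267.5 UMIs in wt. The part of depth in these trends was not tested. The parts were set within each library and cover different ranges. The low part of choroid plexus cells reached a mitochondrial share of 0.636% in GlaKO and 1.37% in wt, and the high part began at 2.09% in GlaKO and 3.60% in wt, so the genotypes are not compared at a like share.

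**Figure D5:**
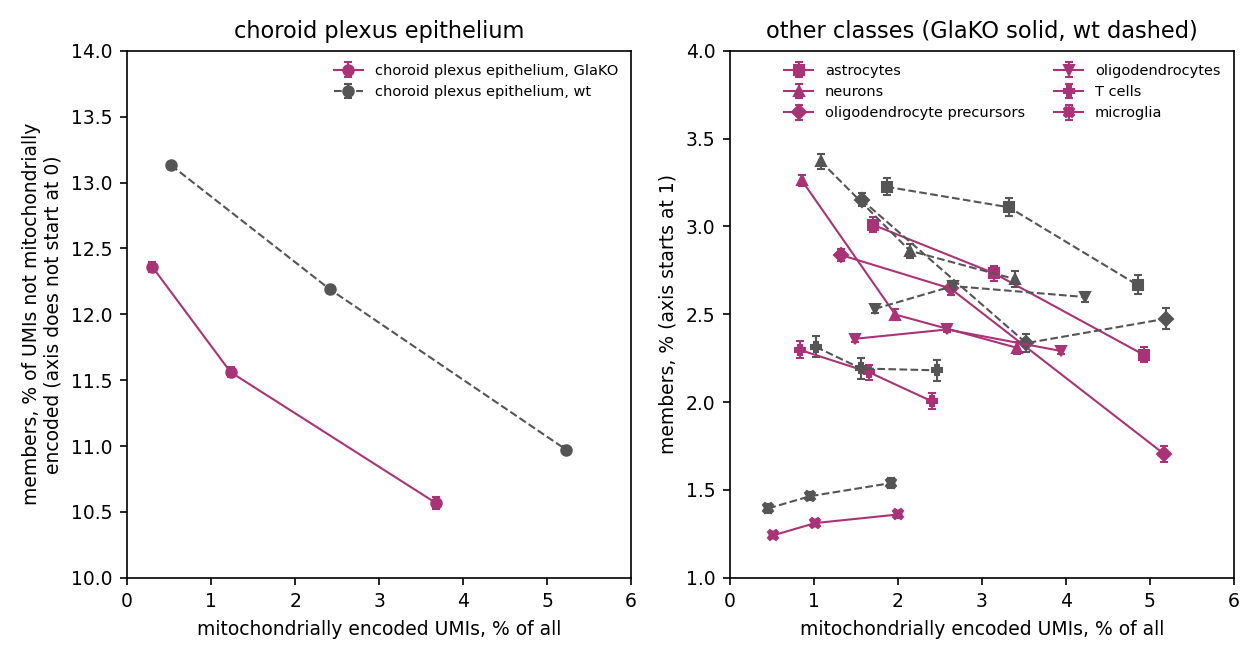
Members as a percent of UMIs that are not mitochondrially encoded (vertical axis), in cells split into 3 equal parts by their mitochondrially encoded share (horizontal axis), with choroid plexus on the left, other classes on the right, GlaKO solid and wt dashed. Bars are exact binomial 95% intervals. The choroid plexus lines fall from 12.4 to 10.6% over the parts in GlaKO and from 13.1 to 10.97% in wt, and the microglia lines rise.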

How the data were processed

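Hippocampal cells of 1 GlaKO and 1 wt library were profiled by 3′ droplet sequencing. The authors deposited raw counts, whole numbers of UMIs per gene and barcode. Per the submitters' processing notes, the tools were Cell Ranger 6.0.1, R 4.1.3 and Seurat 4, with the build mm10. Annotation and filters: not given in the sources used here. Every barcode had at least 500 genes and at most 20% mitochondrial UMIs.

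Scrublet in scanpy 1.11.5 marked 70 GlaKO (1.53%) and 25 wt barcodes (0.459%) as doublets, which were removed. So low a wt share does not show a working caller, and the 4% of barcodes with the highest score were removed as an alternative. Both libraries were clustered together (2000 variable genes, 30 components, 15 neighbours, Leiden resolution 1.0) without members, mitochondrial, ribosomal protein, stress, erythroid or sex-linked genes. A cluster took a name if at least 3 markers of a type had UMIs in 10% of its cells and averaged a log2 fold of at least 1.0 over the median cluster. These limits were set after clusters had been seen. Summed UMIs were compared for genes with at least 100 of them in a class. Log2 ratios have exact conditional 95% intervals, shares Clopper-Pearson and CPM Poisson intervals, which cover counting error only and take UMIs as independent. A gene was called past 1.5-fold with an interval excluding equal levels. With 1 library per genotype no test was run. TMM factors came from edgeR 4.0.16.

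On simulated counts for 8622 genes in oligodendrocytes, 98% of 200 changed genes were called and 0.392% of the others, and 95.5% of intervals held the true ratio. The planted changes were larger than 1.5-fold, so this does not cover changes as small as the member medians. Counts were drawn as independent, with no spread between cells or libraries, so the share of intervals checks only the calculation. Members named by rule are the 3 highest and 3 lowest ratios per class, those called, those with the most and fewest UMIs per complex, the isoform sets and those with 1 sign and intervals excluding equal levels in all classes. Others were named after their values were seen. Members and lists were chosen with earlier results of these data known. Genes listed for only 1 library (410 GlaKO, 264 wt) were left out.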

Additional observations from a re-analysis of the deposited data

Results flagged for a closer look

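For 7 members the counting interval lay above equal levels in 1 class and below them in another, so GlaKO cells were higher than wt cells in one and lower in the other. The difference between classes was not tested. Opposite intervals were not counted over all genes, so the 7 cannot be set against a general share. These ratios depend on the scaling: with TMM or median-of-ratios factors, which lower every choroid plexus and T cell ratio, 3 of the 7 kept opposite intervals (Ndufb4, Cox7c and Atp5c1). With TMM scaling Ndufa6 (-0.01), Uqcrh (-0.02) and Cox4i1 (-0.03) were below 0 in choroid plexus, and the interval of Cox5a in T cells (0.18, -0.06 to 0.42) included equal levels. Cox7c in choroid plexus (0.02, 0.00 to 0.04) and Atp5c1 in T cells (0.26, 0.00 to 0.51) were left with intervals that barely excluded them. Ndufb4, an accessory subunit of complex I with near-copies in the genome, had a log2 ratio of 0.4821 in choroid plexus and -0.1528 in oligodendrocytes. Ndufa6, another accessory subunit, had 0.0497 in choroid plexus and -0.2637 in astrocytes. Uqcrh, the hinge protein of complex III, had 0.0397 in choroid plexus, -0.2205 in T cells and -0.131 in oligodendrocytes. In complex IV, Cox4i1 had 0.0325 in choroid plexus, -0.1518 in astrocytes, -0.1304 in microglia and -0.1042 in oligodendrocytes. Cox7c had 0.0863 in choroid plexus, -0.1211 in microglia, -0.1187 in neurons and -0.1357 in oligodendrocytes. Cox5a had 0.2417 in T cells, -0.2328 in astrocytes, -0.1224 in choroid plexus and -0.2441 in microglia. Atp5c1, the gamma shaft of F1, had 0.3222 in T cells and -0.0444 in choroid plexus.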

How the results depend on the processing

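The median member ratio stayed below that of all genes under each of 15 alternatives in each class, and below 0 in all but 1, T cells with choroid plexus RNA subtracted (0.0184). It ran from -0.16 to 0.02 in T cells, -0.19 to -0.11 in astrocytes, -0.13 to -0.04 in choroid plexus, -0.18 to -0.07 in microglia, -0.30 to -0.08 in neurons, -0.29 to -0.09 in oligodendrocyte precursors and -0.14 to -0.07 in oligodendrocytes. Subtraction gave -0.0669 in microglia and -0.0749 in oligodendrocytes. TMM scaling gave -0.1307 in T cells, -0.107 in choroid plexus and -0.1358 in oligodendrocytes, and median-of-ratios factors -0.1294, -0.1053 and -0.1378. Without ribosomal protein UMIs T cells had -0.1401. Thinning cells to 1000 UMIs gave -0.1635 in T cells, -0.1732 in astrocytes, -0.1448 in neurons, -0.2874 in oligodendrocyte precursors and -0.1445 in oligodendrocytes. An equal split over 5 parts of depth gave -0.1906 in astrocytes, -0.1252 in choroid plexus, -0.2223 in neurons and -0.2542 in oligodendrocyte precursors. Equal weights for clusters gave -0.066 in choroid plexus, -0.0797 in neurons and -0.2217 in oligodendrocyte precursors, and clustering each library alone -0.2958 in neurons. The causes were not tested. Members past 1.5-fold, 1 each in astrocytes and oligodendrocytes and 0 elsewhere, became, with a minimum count of 20, 3 in T cells, 2 in astrocytes, 1 in choroid plexus, 2 in microglia, 1 in neurons, 1 in oligodendrocyte precursors and 2 in oligodendrocytes. Thinning gave 1 in T cells, 2 in astrocytes, 4 in microglia, 1 in neurons, 3 in oligodendrocyte precursors and 0 in oligodendrocytes, and the depth split 1 in T cells, 2 in astrocytes, 1 in microglia and 3 in oligodendrocyte precursors. Equal weights gave 3 in microglia, 1 in oligodendrocyte precursors and 0 in oligodendrocytes, clustering alone 8 in neurons and 0 in oligodendrocytes, TMM 0 in astrocytes, and subtraction 1 in T cells, 0 in astrocytes and 0 in oligodendrocytes. The share of all genes called was not counted under these alternatives, so their member counts cannot be set against a general share. The order of classes kept between 19 (depth split) and 21 of 21 pairs under 11 alternatives. Subtraction, and leaving out 2 shallow clusters, were chosen after seeing the data. No paired analysis was possible because each genotype has 1 library. Depth limits the small classes: T cells had 73 measured members and choroid plexus 90.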

Other observations

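Cox8b, known as the heart and muscle isoform of Cox8a, was not among the members but was also found in choroid plexus epithelium. It had 684 CPM (665 to 703) in GlaKO and 1184 CPM (1169 to 1200.2) in wt choroid plexus cells, from 5070 and 21596 UMIs. In the other 6 classes it lay between 1.45 and 7.81 CPM in GlaKO and between 22.5 and 36.4 CPM in wt cells. Border macrophages, with 46 GlaKO and 34 wt cells, had 1.94% member UMIs in both libraries. A cluster with endothelial markers and also choroid plexus genes among its leading genes had 4.57% member UMIs in 31 GlaKO and 7.84% in 28 wt cells. Pericytes had 2.83% in 14 GlaKO and 4.66% in 33 wt cells.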
